A study of Mus musculus with 6 samples.

Results

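Pdzk1ip1, Parm1 and Kcnj15 are 3 protein-coding mouse genes whose RNA was measured in abdominal white adipose tissue (WAT) of hNAG-1 transgenic and wild-type (WT) mice. They were taken by gene name, older names included, from the scanner output of the arrays, which gave 6 probes for the 3 genes out of 41174 probes for 27670 named genes. They were selected on their signals in these same hNAG-1 and WT arrays, so their differences between the genotypes are given as a description with no test. Parm1 stood on the array under its older name 9130213B05Rik, and 1 of the 3 Kcnj15 probes stood under 4930414N08Rik.

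Total RNA was hybridised to 6 single-colour microarrays, 3 for each genotype. Each array held the pooled RNA of 2 mice, so that 6 mice stood behind each genotype. All mice were females aged 30 wk of the strain labelled C57/BL6. The hNAG-1 mice came from 1 transgenic line carrying human NAG-1 (also called GDF15, a secreted protein of the TGF-beta superfamily), and the WT mice lacked the transgene. The transgene is active in most tissues and strongly so in white and brown fat, and its promoter is not given in the sources used here. With 1 line, an effect of the protein and an effect of the place where the transgene sits cannot be told apart.

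Depth on an array is set by signal over background. Between 70.8% and 81.7% of the probes on an array were well above background, and the log2 values of any 2 arrays correlated across genes with r between 0.965 and 0.988. The 3 WT arrays and hNAG-1 replicate 1 lay on 1 slide, and hNAG-1 replicates 2 and 3 lay on a second slide with no WT array. The label of the tissue was borne out by its defining genes, since all 10 adipocyte markers were well above background on all 6 arrays. WT replicate 2 stood apart in markers of the exocrine pancreas, whose mean log2 value relative to the WT mean was 2.79 there and between -1.89 and -0.94 on the other arrays. It was also the highest array in brown fat markers, with a list mean of 1.15 against -0.75 to 0.74 elsewhere. In muscle markers the WT pools differed, with list means of 1.05, 0.52 and -1.57 on WT replicates 1 to 3, against -1.24 to 0.10 on the hNAG-1 arrays. The signal of the muscle gene Cnn1 was 78049, 85102 and 6861 on WT replicates 1 to 3. The probe for the mouse gene Gdf15 gave a log2 difference of -0.82 (SE 0.351) between hNAG-1 and WT with a limma adjusted p = 0.413, and no probe for the human transgene was used here.

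Pdzk1ip1 encodes MAP17, a small membrane protein of the kidney proximal tubule that binds PDZ-domain scaffolds and acts as a partner of the sodium-glucose cotransporter SGLT2. Parm1 encodes a mucin-like, heavily glycosylated membrane protein that is known from the androgen-regulated prostate. Kcnj15 encodes Kir4.2, an inward rectifier potassium channel that sets the resting potential of epithelial and other cells and can pair with Kir5.1, the product of Kcnj16. None of the 3 is an enzyme of fatty acid synthesis, the pathway in which adipocytes turn citrate into acetyl-CoA, malonyl-CoA and then long-chain fatty acids.

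Of the 6 probes, 5 are shown, namely the brighter probe of each gene, on which its main values rest, and the other probes at the Kcnj15 locus. Each probe is 60 bases long, and its first 30 bases are printed in lower case with the positions the array design gives in the mouse build mm7. No annotation of that build was used here, so the exon or untranslated region under a probe is not stated.
Pdzk1ip1, chr4:114470074-114470133: tctactgaaacaagctgactccctcacctc
Parm1, brighter probe, chr5:91612179-91612238: atagaactctcgctccacacctataaagca
Kcnj15, brighter probe, chr16:95604197-95604256: acagctgttcgtggccatcttcccctttgt
Kcnj15, dimmer probe, chr16:95604708-95604767: agacggcagtcaccacaaaagaaaactgaa
Kcnj15 locus, named 4930414N08Rik, chr16:95604231-95604290: gagatggacatattttctgaactcttgatt

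The last of these probes is listed from its higher to its lower position, while the others are listed in ascending order. It shares 26 positions with the brighter Kcnj15 probe, but only 10 of those bases matched on the opposite strand and 7 on the same strand, so the strand it reads was not settled from these files. It was well above background on 1 of the 6 arrays and is kept apart from the Kcnj15 values below.

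The 250 bases before each gene's start are shown because the 3 genes were high on the same arrays. They come from RefSeq on build GRCm38.p6, all on the + strand, and capitals mark the letters CANNTG, the general E-box.
Pdzk1ip1, chr4:115088458-115088707: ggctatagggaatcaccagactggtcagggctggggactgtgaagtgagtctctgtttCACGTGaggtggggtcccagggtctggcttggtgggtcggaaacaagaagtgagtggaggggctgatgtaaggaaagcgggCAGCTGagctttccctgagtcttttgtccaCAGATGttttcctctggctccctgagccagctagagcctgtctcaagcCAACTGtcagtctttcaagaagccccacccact
Parm1, chr5:91517450-91517699: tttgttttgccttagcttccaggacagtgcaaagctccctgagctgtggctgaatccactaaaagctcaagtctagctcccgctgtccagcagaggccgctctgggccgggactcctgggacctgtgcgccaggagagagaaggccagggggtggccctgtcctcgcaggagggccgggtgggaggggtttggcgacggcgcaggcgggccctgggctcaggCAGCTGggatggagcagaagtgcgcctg
Kcnj15, chr16:95257308-95257557: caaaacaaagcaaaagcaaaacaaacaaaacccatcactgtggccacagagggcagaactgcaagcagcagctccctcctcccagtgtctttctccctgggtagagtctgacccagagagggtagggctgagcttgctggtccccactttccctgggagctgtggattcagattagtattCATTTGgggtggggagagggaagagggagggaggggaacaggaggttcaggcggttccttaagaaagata

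On either strand, the Pdzk1ip1 stretch held CANNTG 4 times, at 192, 111, 81 and 33 bases before the start. The match at 192 bases was CACGTG, which is also counted as a CANNTG and is the E-box core that SREBP-1 and ChREBP sites can hold. CACGTG was in 6.02% of the 32817 promoter stretches of the same length, and CANNTG in 66.2%. The Parm1 stretch held 1 CANNTG at 28 bases and the Kcnj15 stretch 1 at 70 bases before the start, and neither held CACGTG. Parm1 had the most CpG-rich stretch, with 11 CpG and 65.2% GC, against 3 CpG and 55.6% for Pdzk1ip1, 1 CpG and 53.2% for Kcnj15, and medians of 6 CpG and 52.4% over all promoters. None of the 3 stretches held the sterol element TCACNCCAC (1.05% of all promoters), the nuclear receptor letters AGGTCA (14%), the androgen receptor letters AGAACA (16.1%), the forkhead letters GTAAACA (3.16%), the STAT letters TTCNNNGAA (7.01%), GGGCGG (32.7%), CCAAT (33.8%) or TATAAA (12.4%). These matches are letters in a window and say nothing of binding.

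Pdzk1ip1 had the largest difference of the 3. Its processed signal, the background-subtracted brightness from the scanner software, was 978, 525 and 796 on WT replicates 1 to 3 and 5211, 4353 and 2533 on hNAG-1 replicates 1 to 3. Every hNAG-1 array was above every WT array, and hNAG-1 replicate 3 and WT replicate 2 were the lowest of their genotypes. After each array was scaled by the 75th percentile of its signals, the mean log2 value was -0.34 (SD 0.416, n = 3) in WT and 2.41 (SD 0.345, n = 3) in hNAG-1 WAT. The difference of 2.75 (SE 0.312) is a 6.71-fold higher level. The lowest hNAG-1 array lay 2.00 above the highest WT array on the log2 scale, which is 3.99-fold, while the highest and lowest arrays of 1 genotype differed by at most 1.75-fold. In bulk tissue, a change in the number of cells of a type and a change in RNA per cell cannot be told apart, here and for the other genes below.

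Parm1 was read by 2 probes, and both gave higher signals on every hNAG-1 array. The signal of the brighter probe was 7429, 6224 and 8877 on WT replicates 1 to 3 and 27381, 30111 and 17245 on hNAG-1 replicates 1 to 3. The genotypes did not overlap, hNAG-1 replicate 3 was again the lowest hNAG-1 array, and WT replicate 2 again the lowest WT array. The mean log2 value was 2.98 (SD 0.242) in WT and 5.06 (SD 0.317) in hNAG-1 mice, a difference of 2.07 (SE 0.23, n = 3 per genotype) or 4.21-fold, with a gap of 1.53 between the nearest arrays. The dimmer probe gave 806, 794 and 914 in the WT pools and 3362, 2744 and 1462 in the hNAG-1 pools. It showed a difference of 1.88 (SE 0.257) or 3.68-fold with no overlap, and its lowest hNAG-1 array was replicate 3 as well.

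Kcnj15 had the smallest difference of the 3, with 2 probes above background on all arrays. The signal of its brighter probe was 245, 187 and 278 on WT replicates 1 to 3 and 623, 541 and 432 on hNAG-1 replicates 1 to 3. The genotypes did not overlap, and after scaling the 3 hNAG-1 arrays lay within 1.11-fold of each other. The mean log2 value was -2.01 (SD 0.27) in WT and -0.47 (SD 0.0735) in hNAG-1 mice, a difference of 1.54 (SE 0.161, n = 3 per genotype) or 2.91-fold. The dimmer probe gave 14.4, 22.5 and 14.8 in the WT pools and 36.7, 27.6 and 22.3 in the hNAG-1 pools, where the scanner's own error was 11.2% to 20.7% of the signal. On this probe the signals of WT replicate 2 and hNAG-1 replicate 3 were nearly the same before scaling, and after scaling they lay 0.52 apart on the log2 scale. Its difference was 1.12 (SE 0.243) or 2.17-fold. The probe named 4930414N08Rik gave 2.46, 4.9 and 3.19 in the WT pools and 6.91, 85.7 and 7.59 in the hNAG-1 pools, and all but hNAG-1 replicate 2 were not well above background.

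**Figure D1:**
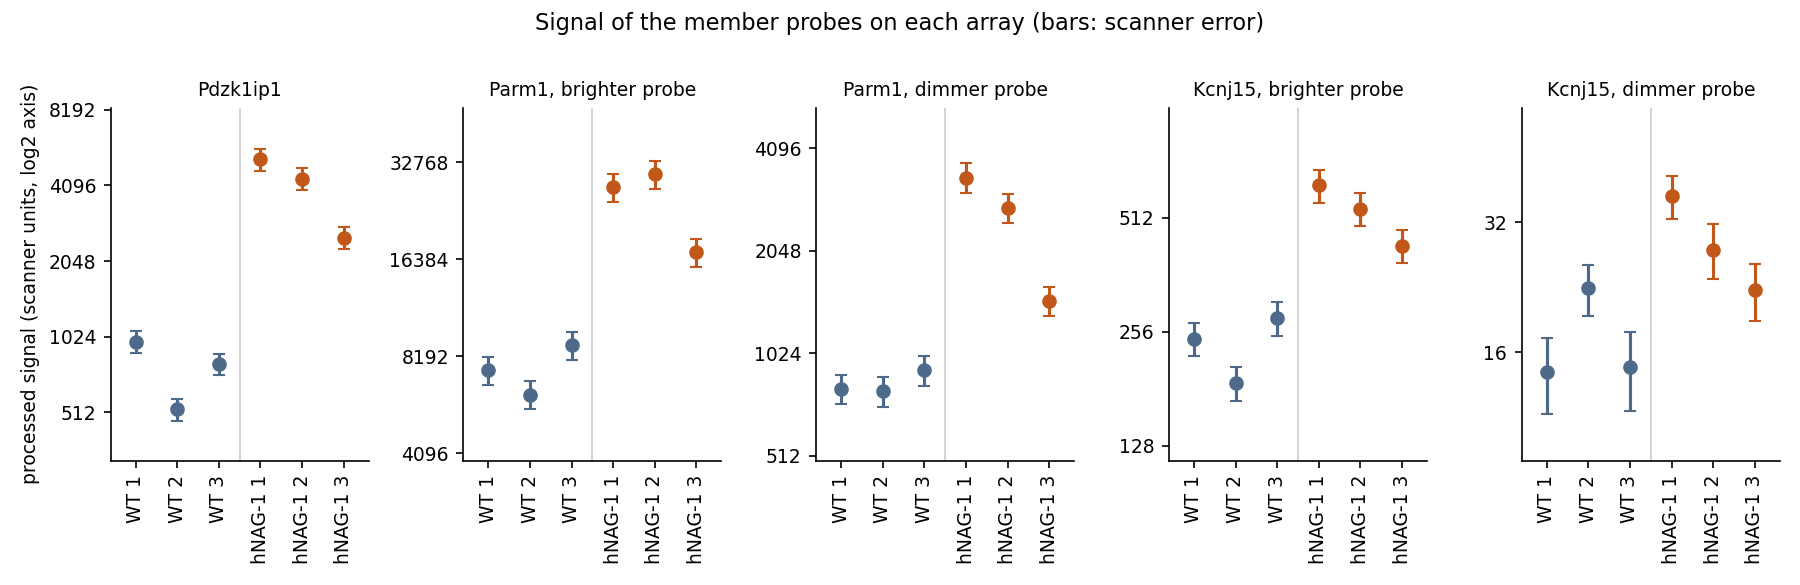
Processed signal (scanner units, log2 axis with its own range in each panel) of the 5 probes of Pdzk1ip1, Parm1 and Kcnj15 that were above background on all 6 arrays, with WT arrays in blue and hNAG-1 arrays in orange and bars for the scanner's error of 1 spot. The hNAG-1 arrays lie above the WT arrays in every panel except the last, where hNAG-1 replicate 3 (22.3) meets WT replicate 2 (22.5) before the arrays are scaled.

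Among the 21067 genes fitted, Pdzk1ip1 ranked 5, Parm1 21 and Kcnj15 116 by the size of a positive log2 difference. Each of the 3 had no overlap between genotypes, as did 13.6% of all genes in that direction and 6.57% in the other, and since this contrast chose the genes nothing is read from that count. On the slide that held both genotypes, hNAG-1 replicate 1 lay above the WT mean by 2.94 for Pdzk1ip1, 2.01 for Parm1 and 1.55 for Kcnj15. The mean of the other two hNAG-1 arrays, on the second slide, lay above it by 2.65, 2.11 and 1.54 in the same order. Within the shared slide the differences were thus close to those over all arrays. Without WT replicate 2, the array high in pancreas and brown fat markers, they were 2.52, 1.97 and 1.40.

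The lipogenic enzymes were set beside the 3 genes array by array, each value taken relative to the gene's own WT mean. The mean over 10 enzymes was 0.11, -0.21 and 0.10 on WT replicates 1 to 3 and 1.48, 1.48 and 1.27 on hNAG-1 replicates 1 to 3. Both genotypes thus had the same lowest array as the 3 genes, WT replicate 2 and hNAG-1 replicate 3. Pdzk1ip1 was at 0.35, -0.46 and 0.11 in the WT pools and 2.94, 2.95 and 2.35 in the hNAG-1 pools. Parm1 was at -0.05, -0.21 and 0.26 and then 2.01, 2.42 and 1.79. Kcnj15 was at 0.02, -0.28 and 0.26 and then 1.55, 1.61 and 1.47. Pdzk1ip1 stood above all 10 enzymes on each hNAG-1 array, Parm1 above 7, 10 and 9 of them, and Kcnj15 above 5, 4 and 6, in the middle of the enzymes.

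After the enzyme mean was subtracted on each array, Kcnj15 kept almost no difference between genotypes. It was at -0.09, -0.07 and 0.16 in the WT pools and 0.06, 0.13 and 0.20 in the hNAG-1 pools, so that the genotypes overlapped and the means differed by 0.13. This closeness did not hold with normexp background correction, where Kcnj15 had a log2 difference of 0.88 and the enzymes a median of 1.71. It is that of the brighter probe. The dimmer Kcnj15 probe was at 1.25, 1.11 and 0.98 on hNAG-1 replicates 1 to 3, below the enzyme mean on each. Parm1 minus the enzyme mean was -0.16, -0.01 and 0.16 in the WT pools and 0.53, 0.94 and 0.53 in the hNAG-1 pools, a difference of 0.66 with no overlap. Pdzk1ip1 minus the enzyme mean was 0.24, -0.25 and 0.01 and then 1.46, 1.47 and 1.08, a difference of 1.34 with no overlap. The enzyme mean includes Fasn and Scd1, whose very bright probes had the smallest enzyme differences (0.45 and 0.54) and so lower it on the hNAG-1 arrays. A mean without them was not computed. The spread between arrays of 1 genotype was also smaller for each gene once the enzyme mean was taken off. The pooled SD went from 0.382 to 0.234 for Pdzk1ip1, from 0.282 to 0.202 for Parm1 and from 0.198 to 0.11 for Kcnj15, and the enzyme mean itself had a pooled SD of 0.155. The share of all genes whose spread falls in the same way was not computed, so nothing particular to the 3 genes is read from these SDs. The lowest hNAG-1 array was replicate 3 for all 3 genes, for 7 of the 10 enzymes and for 26.3% of all genes. The lowest WT array was replicate 2 for all 3 genes, for 5 of the 10 enzymes and for 36.1% of all genes. This holds for the brighter probes, since on the dimmer Kcnj15 probe WT replicate 2 was the highest WT array and on the dimmer Parm1 probe WT replicate 1 was the lowest after scaling. No correlation across the arrays is given, because they form 2 clusters by genotype.

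**Figure D2:**
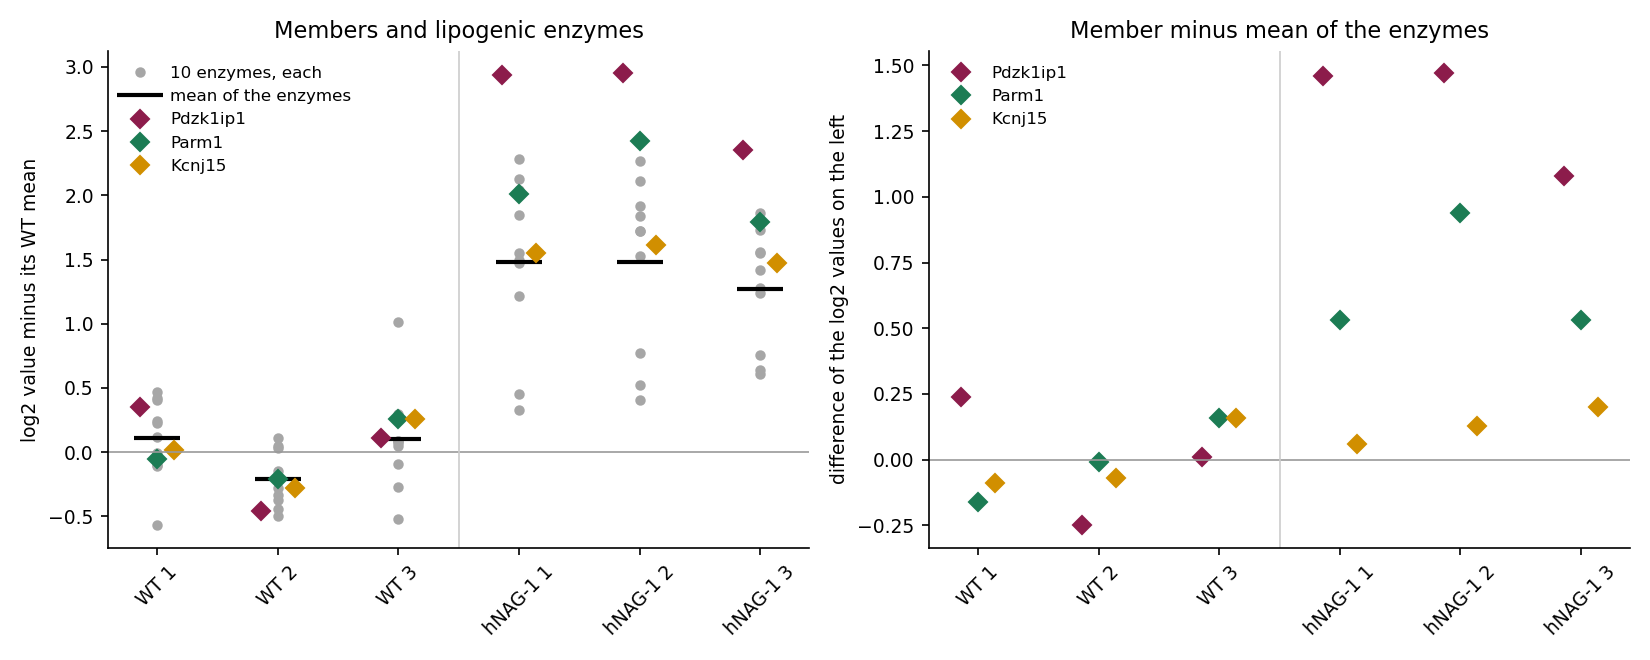
Left, log2 value relative to the WT mean of the gene on each of the 6 arrays for Pdzk1ip1, Parm1 and Kcnj15 (diamonds), for 10 lipogenic enzymes (grey points) and for the enzyme mean (black bars). Right, the same 3 genes minus the enzyme mean, where Kcnj15 lies between -0.09 and 0.20 on all arrays and Pdzk1ip1 between 1.08 and 1.47 on the hNAG-1 arrays.

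The enzymes and the regulators of the pathway were read from the limma fit across all genes. These lists were chosen with earlier results of these data known, so their counts are a description. No gene of the 21067 passed an adjusted p under 0.05 (percent of genes called 0, smallest adjusted p = 0.168), and 2641 or 12.5% had an unadjusted p under 0.05, with 1781 of them (8.45% of all genes) higher and 860 (4.08%) lower in the transgenic pools. With trended and robust variances, 107 genes passed the adjusted threshold as higher and 23 as lower. All 10 enzymes had an unadjusted p under 0.05 as higher, with a median log2 difference of 1.55 against 0.0635 over all genes. Acly, whose product cleaves citrate to supply acetyl-CoA, had a difference of 1.96 (SE 0.194, limma adjusted p = 0.168). Elovl6, which lengthens palmitate, had 2.13 (SE 0.268, limma adjusted p = 0.176), and Me1, which supplies NADPH, had 1.48 (SE 0.205, limma adjusted p = 0.176). The carboxylases Acaca and Acacb, which make malonyl-CoA, were at 1.50 (SE 0.141) and 1.87 (SE 0.284), and Acss2, which activates acetate, was at 1.66 (SE 0.24). The desaturase Scd2 was at 1.59 (SE 0.433) and the elongase Elovl5 at 0.91 (SE 0.253). Fasn, the fatty acid synthase, and Scd1, a desaturase, had the smallest differences, 0.45 (SE 0.125) and 0.54 (SE 0.114), and another Fasn probe gave 1.40. Before scaling the signals of the brighter Fasn probe overlapped, at 417190 to 451998 in WT and 434748 to 498286 in hNAG-1 pools. Quantile normalization gave 0.11 for Fasn and 0.38 for Scd1. The pathway's regulators Srebf1 (0.98, SE 0.198), Mlxipl (1.25, SE 0.137) and Thrsp (1.36, SE 0.211) and the citrate carrier Slc25a1 (1.50, SE 0.175) were also higher at an unadjusted p under 0.05, 4 of 4.

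**Figure D3:**
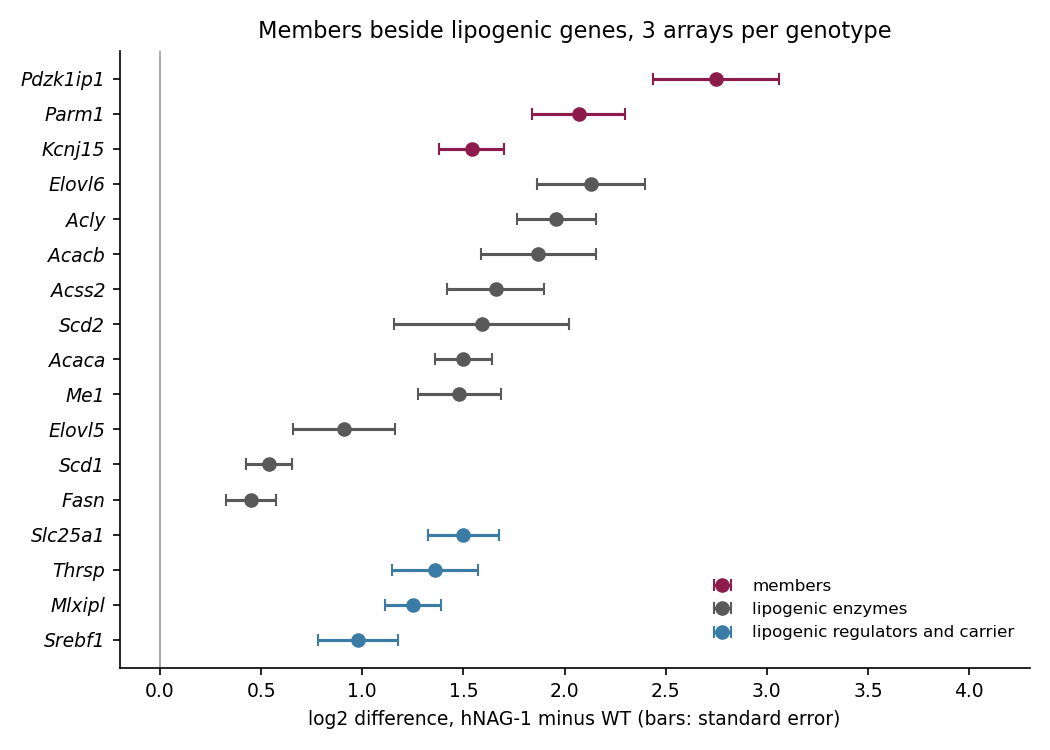
Log2 difference between hNAG-1 and WT (horizontal axis, bars are 1 standard error, 3 arrays per genotype) for Pdzk1ip1, Parm1 and Kcnj15, for 10 lipogenic enzymes and for 4 regulators and carriers of the pathway. Pdzk1ip1 (2.75) lies above every enzyme, Parm1 (2.07) next to Elovl6 (2.13) and Acly (1.96), and Kcnj15 (1.54) next to Acaca (1.50).

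The genes nearest in pattern to each of the 3 were found by the root mean square of the differences between log2 values relative to the WT mean over the 6 arrays, among 18461 other genes above background on all arrays. Such values carry the genotype difference, so genes with a like difference come out close even where their order within a genotype is unlike. Parm1 had the closest match in Mvd, an enzyme of cholesterol synthesis (0.133), and Acly was next (0.134). They were followed by the fructose transporter gene Slc2a5 (0.187), Tmem79 (0.198) and the forkhead gene Foxd2 (0.209). Kcnj15 lay closest to Fdps, which makes farnesyl diphosphate (0.116), then to Ocstamp (0.12), the lipogenic regulator Thrsp (0.146), Tmem179 (0.151) and Me1 (0.155). The brightest Fdps probe had a log2 difference of 1.59 beside 1.54 for Kcnj15, and averaging the Fdps probes gave 0.94. Pdzk1ip1 had no gene as close, and the nearest to it were the sodium-proton exchanger gene Slc9a2 (0.275), the helicase gene Recql4 (0.407), Elovl6 (0.439) and Slc2a5 (0.51). Few genes had a difference as large as that of Pdzk1ip1, which ranked 5 among 21067. By the same measure Parm1 and Kcnj15 were 0.404 apart, Pdzk1ip1 and Parm1 0.533, and Pdzk1ip1 and Kcnj15 0.883, so that each lay closer to several other genes than to the other two.

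Slc9a2, the gene nearest to Pdzk1ip1, gave signals of 196, 76.1 and 126 in the WT pools and 585, 783 and 415 in the hNAG-1 pools. Mvd, the gene nearest to Parm1, gave 688, 543 and 982 and then 2734, 2541 and 1733. In both, hNAG-1 replicate 3 was the lowest hNAG-1 array and WT replicate 2 the lowest WT array after scaling. Fdps, the gene nearest to Kcnj15, gave 3277, 3036 and 4645 and then 9343, 9102 and 6870, and after scaling its lowest hNAG-1 array was replicate 1. Foxd2 also had its lowest hNAG-1 array in replicate 1, and Slc2a5 its lowest WT array in replicate 1. These genes were chosen for likeness on the same 6 arrays, so their order is a description. With normexp background correction the log2 difference of Slc9a2 fell from 2.59 to 1.34 and that of Recql4 from 2.22 to 1.53. Foxd2 fell from 1.89 to 0.53, Tmem79 from 1.90 to 1.25, Ocstamp from 1.57 to 0.60 and Tmem179 from 1.48 to 0.68. Pdzk1ip1 was at 2.55 and Mvd at 1.82, while Slc2a5, Acly, Elovl6, Fdps, Thrsp and Me1 did not fall. Among the enzymes, Acly stood at place 10 for Pdzk1ip1, 2 for Parm1 and 50 for Kcnj15. Fasn and Scd1 were the farthest of the enzymes from all 3, between place 880 and 1831. These places rest on very bright probes, with signals of 417190 to 498286 for Fasn and 233908 to 304004 for Scd1. Another Fasn probe had a log2 difference of 1.40 against 0.45. Whether differences are flattened at such brightness was not tested.

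**Figure D4:**
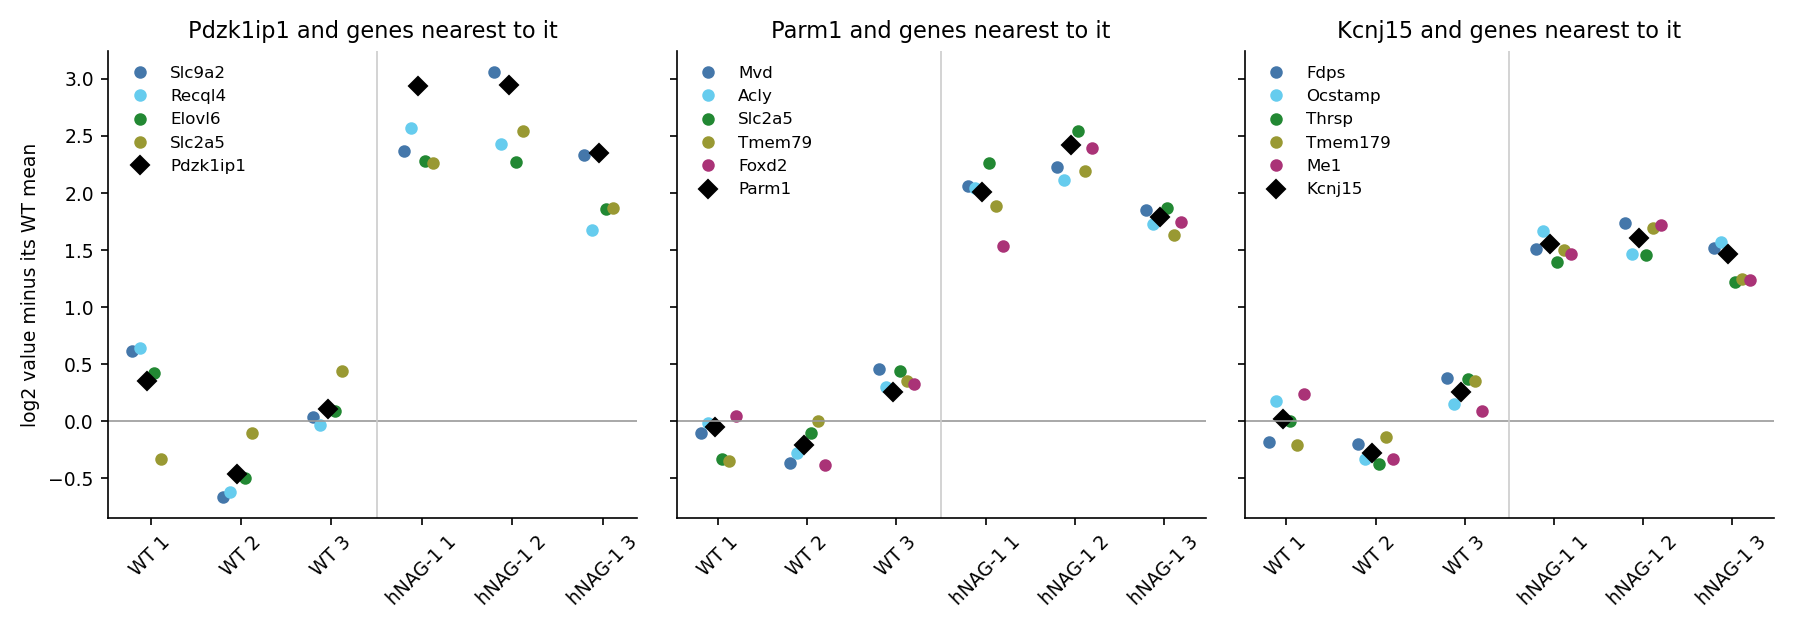
Log2 value relative to the WT mean on each of the 6 arrays for Pdzk1ip1, Parm1 and Kcnj15 (black diamonds) and for the genes nearest to each by root mean square difference (coloured points, set slightly apart along the axis). The points nearest to Kcnj15 lie 0.116 to 0.155 from it and those nearest to Pdzk1ip1 lie 0.275 to 0.51 from it.

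Of 30 measured relatives and partners of the 3 genes, 4 (13.3%) had an unadjusted p under 0.05 in limma, near the 12.5% over all genes. Of 10 PDZ scaffold and sodium-glucose cotransporter genes, 7 were measured, with a median log2 difference of 0.14. None was higher and 1 was lower at an unadjusted p under 0.05 in limma, Slc9a3r2, a scaffold of the sodium-proton exchangers (-0.34, SE 0.123, limma adjusted p = 0.367). Of 12 genes listed as mucin-like membrane glycoproteins, 10 were measured with a median of 0.04. Not all of them are alike with Parm1 in their build, since Mcam is an adhesion molecule without a mucin-like build. Podxl (0.45, SE 0.133) and Muc20 (0.57, SE 0.171) were higher and Mcam (-0.48, SE 0.127) was lower at an unadjusted p under 0.05, with limma adjusted p between 0.274 and 0.304. Of 16 inward rectifier channel and channel partner genes other than Kcnj15, 13 were measured, with a median of 0.34 and 0 at an unadjusted p under 0.05 in limma. Kcnj16, whose product pairs with Kir4.2, had a difference of -0.80 (SE 0.498, limma adjusted p = 0.547). With normexp background correction the sign of Muc20 and of the medians for all 3 families turned (-0.28 for the PDZ and cotransporter genes), as did the PDZ and channel medians with the slide as a block, so no direction is given for these families.

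The genes on either side of the 3 on their chromosomes were taken in the order of the GRCm38.p6 gene table. Of the 18 measured neighbours, 3 on each side of each gene, 1 was higher and 1 lower at an unadjusted p under 0.05 in limma, a share of 11.1% that is near the 12.5% over all genes, with a median log2 difference of 0.02. Next to Pdzk1ip1 stood Tal1 (-0.19, SE 0.12) and Cyp4x1 (0.38, SE 0.348), and the third gene before it, Cmpk1, a nucleotide kinase, was the one that was higher (0.46, SE 0.167, limma adjusted p = 0.363). Next to Parm1 stood Btc, the growth factor betacellulin, which was the one that was lower (-0.78, SE 0.159, limma adjusted p = 0.21), and Rchy1 (0.20, SE 0.114). Next to Kcnj15 stood another channel gene, Kcnj6 (0.34, SE 0.252), and the transcription factor gene Erg (0.10, SE 0.354). The widest value was that of Cyp4a14 (-2.86, SE 1.85, limma adjusted p = 0.561), a fatty acid hydroxylase that was high on WT replicate 2.

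**Figure D5:**
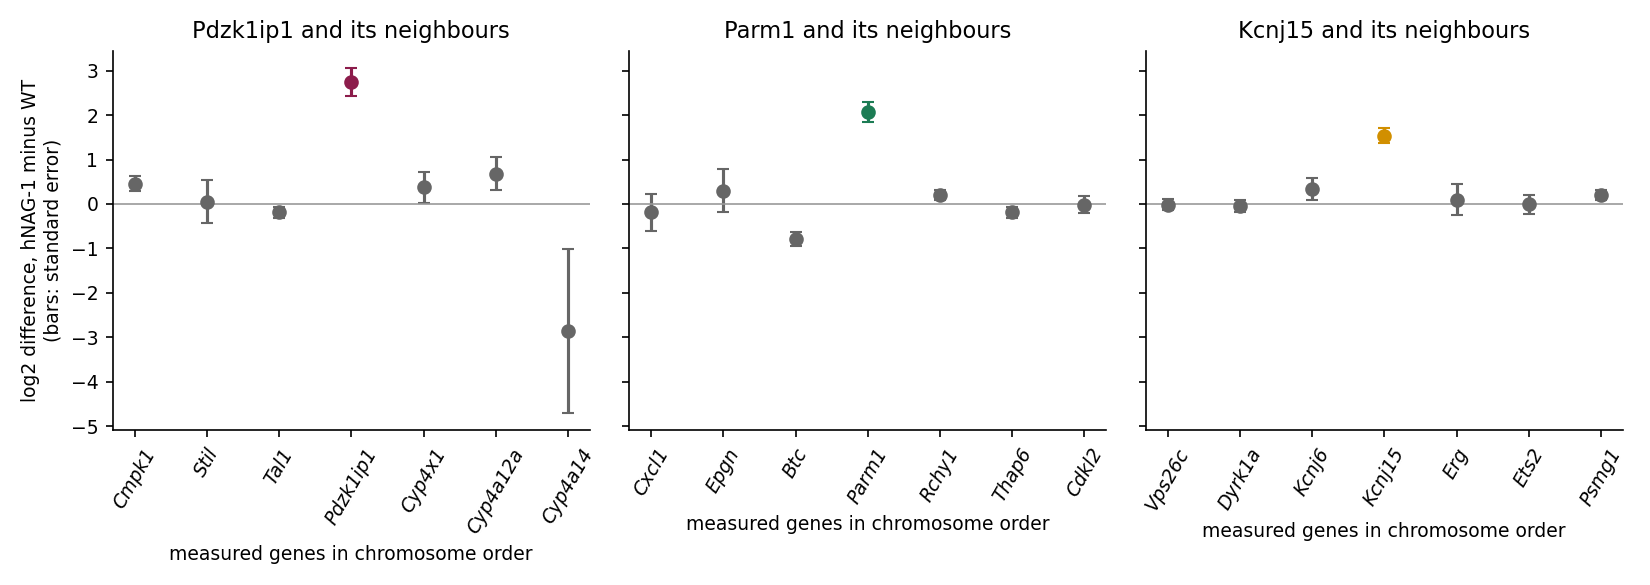
Log2 difference between hNAG-1 and WT (bars are 1 standard error, 3 arrays per genotype) of Pdzk1ip1, Parm1 and Kcnj15 and of the 3 measured genes on each side, drawn in chromosome order and not to distance. The 3 genes stand at 2.75, 2.07 and 1.54, and their 18 neighbours lie between -2.86 and 0.68.

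Markers of the cells that WAT can hold were read beside the 3 genes. All 10 adipocyte markers had a positive log2 difference, with a median of 0.28 beside 0.0635 for the whole array. Of these markers, 3 (Retn 0.64, Slc2a4 0.75 and Fabp4 0.39) were higher at an unadjusted p under 0.05 in limma. For scale, 8.45% of the genes fitted passed that threshold as higher and 4.08% as lower, here and for the lists below. The summed adipocyte level, in multiples of an array's 75th percentile signal, ran from 1776 to 2123 in WT and from 2205 to 2589 in hNAG-1 mice. That percentile itself ran from 913 to 970 in WT and from 629 to 858 in hNAG-1 mice. Before scaling the Fabp4 signals overlapped, at 432508 to 489764 in WT and 460956 to 476680 in hNAG-1 pools. Quantile normalization gave 0.11 for Fabp4, so the separation of the sums depends on the scaling. Of 8 fibroblast markers, 3 were lower at that threshold, Col1a1 (-0.62) and Ly6a (-0.53) among them, and the summed level ran from 417 to 463 and from 383 to 443. Of 8 macrophage markers, 2 were lower, Cd68 (-0.44) and Itgam (-0.37), with sums of 123 to 157 and 131 to 136. Of the remaining lists, 1 of 8 endothelial and 1 of 9 muscle markers was lower, 1 of 5 brown fat markers was higher (summed level 35.9 to 157 in WT and 62.3 to 96.9 in hNAG-1 mice) and 0 of 7 lymphocyte markers passed, and the summed muscle level was widest in WT, from 70.4 to 420, against 85.7 to 144. The part of these shifts in the values of Pdzk1ip1, Parm1 and Kcnj15 was not tested.

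Because Pdzk1ip1 and Kcnj15 are known from the kidney tubule and Parm1 from glandular epithelium, markers of those cells were read as well. Of 9 kidney tubule markers, 7 were measured and 0 were past an unadjusted p under 0.05 in limma, and the defining proximal tubule and loop genes Slc34a1 and Umod were not well above background on any array. The summed kidney level ran from 1.44 to 1.81 in WT and from 1.38 to 1.65 in hNAG-1 mice. Most of this sum came from Lrp2, with signals of 703 to 1494 and a log2 difference of -0.22 (SE 0.193), while Aqp2 was at 92.4 to 119. The sum thus mainly follows 1 gene. Of 11 epithelial and mammary markers, 8 were measured, 2 were higher (8.45% over all genes) and 0 lower (4.08%). The 2 were Krt5 and Wap, both dim, with signals of 41.1 to 76.1 and 9.48 to 19.1. The summed epithelial level ran from 11.5 to 14.8 in WT and from 10.7 to 12.8 in hNAG-1 mice. A large part of this sum came from Krt18, with signals of 3985 to 7824. Mesothelial markers were brighter, with sums of 60.3 to 62.9 in WT and 44 to 58.3 in hNAG-1 mice, and 0 of 5 passed an unadjusted p under 0.05 in limma. Which cells gave the Krt18 signal was not tested. Csn2 and Elf5, defining mammary genes, were not well above background on any array. For both lists the ranges of the genotypes overlapped, and the median log2 differences were 0.46 for the kidney tubule and 0.11 for the epithelial markers. Some kidney genes were near the floor, with Cdh16 and Slc12a3 well above background on only 3 and 4 arrays. The kidney list mean was highest on hNAG-1 replicate 2, at 0.74, against -0.50 to 0.56 on the other arrays.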

How the data were processed

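Processed signals (intensity) of 6 Agilent arrays were deposited by the authors, made with Agilent Feature Extraction 9.5 per the submitters' processing notes, and the deposited series table held the same values. The study's methods name another maker's array, and the files were followed. Of 45018 spots, 1639 control spots and those marked as outliers were dropped, the rest averaged by probe, log2 taken and each array's 75th percentile subtracted. A probe was kept when 3 or more of the 6 arrays marked it as well above background (31469 of 41174 probes), and each gene was read from its brightest kept probe. Probes were named by accession (22951), symbol (6659), older symbol (3109) or the array's own name (8455). All genes were fitted with limma 3.58.1 in R 4.3.3 (two-sided, Benjamini-Hochberg over 21067 genes), after tests on simulated data. SEs of the 3 genes come from their own arrays, and other SEs from limma. Pools held different mice, so p-values measure the spread between pools. Genes and lists were chosen with earlier results of these data known. Genes named are the lipogenic list, the 5 genes nearest each of the 3 in pattern (1 gene and 1 probe sequence are not reported here), the nearest chromosome neighbours and up to 4 genes of each other list by moderated t, with Gdf15, Cmpk1 and Cyp4a14 added after their values were seen. Motif letters were counted on both strands.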

Additional observations from a re-analysis of the deposited data

Results flagged for a closer look

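The probe named 4930414N08Rik at the Kcnj15 locus, which enters no comparison because it was dim, gave a processed signal of 85.7 on hNAG-1 replicate 2. The highest WT array was at 4.9, and the other two hNAG-1 arrays were at 6.91 and 7.59. It drew attention because it was above background on that array only and above all WT arrays.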

How the results depend on the processing

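Over 16 alternative settings the log2 difference stayed positive for the 3 genes, between 2.52 and 2.95 for Pdzk1ip1, 1.90 and 2.21 for Parm1 and 0.88 and 1.67 for Kcnj15, and all 160 values of the 10 enzymes were positive. With quantile normalization Fasn and Fabp4 were each at 0.11, against 0.45 and 0.39. Normexp background correction gave 0.88 for Kcnj15 and moved the median of all genes from 0.06 to -0.19. Relative to that median the values were 2.74 for Pdzk1ip1, 2.40 for Parm1 and 1.07 for Kcnj15, against 2.68, 2.01 and 1.48. Averaging the 2 Kcnj15 probes gave 1.33. With normexp, the count at an unadjusted p under 0.05 was 436 against 2641, that of the neighbours 0 against 2, the median was -0.25 for the mucin-like, -0.36 for the channel and -0.28 for the PDZ and cotransporter genes and 1.71 for the enzymes, and Muc20 (-0.27), Cyp4x1 (-0.39) and Kcnj6 (-0.50) turned sign. With the slide as a fixed block, which rests on hNAG-1 replicate 1 alone, the count was 1624, the medians were -0.32 for the PDZ and cotransporter genes and -0.20 for the channel genes, and Cyp4x1 (-0.29), Kcnj6 (-0.11) and Erg (-0.40) turned sign. Trended and robust variances gave 130 genes at an adjusted p under 0.05 against 0, with 6 of the 10 enzymes among them. The cause was not tested. Without 1 array at a time the count at an unadjusted p ran from 1611 (without hNAG-1 replicate 2) to 3224, and was 1738 without WT replicate 1. The count among neighbours ran from 1 to 4 (4 without hNAG-1 replicate 1), the mucin-like median from -0.03 to 0.12, the PDZ and cotransporter median from -0.06 to 0.50, the channel median from 0.02 to 0.46, and Erg from -0.08 (without hNAG-1 replicate 3) to 0.42, below 0 also without WT replicate 1 (-0.07) or WT replicate 2 (-0.04).

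The replicate numbers did not pair the arrays (correlations of deviations 0.0975, 0.512 and 0.0952, and 2 of 6 arrays closest to their own number). A replicate block left the 3 differences at 2.75, 2.07 and 1.54 and gave 2414 genes at an unadjusted p under 0.05 and 0 at the adjusted threshold. Low signal over background limits the dimmer Kcnj15 probe and the 4930414N08Rik probe.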
